A study of Mus musculus with 6 samples.

Results

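The genes described here encode 10 enzymes that modify and crosslink collagen: the lysyl oxidases Lox, Loxl1, Loxl2, Loxl3 and Loxl4, the lysyl hydroxylases Plod1, Plod2 and Plod3, and the prolyl 4-hydroxylase α subunits P4ha1 and P4ha2. They were picked by name, and all 10 were found among the 56953 genes of the deposited table. The libraries came from mouse embryonic fibroblasts (MEFs), connective tissue cells grown from mouse embryos, kept in DMEM with 10% fetal bovine serum. There were 3 libraries labelled WT and 3 labelled GalfaqKO, written GαqKO here, which the study's methods describe as cells lacking both Gαq and Gα11, the α subunits through which many receptors activate phospholipase C. Each genotype was 1 cell line obtained from another laboratory, so a difference between the lines and a difference between the genotypes cannot be told apart. RNA was selected by its poly-A tail and sequenced, and the values are normalized counts, which are reads per gene divided by a size factor of the library.

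A collagen chain is modified in a fixed order. Inside the endoplasmic reticulum, prolyl 4-hydroxylase converts prolines to 4-hydroxyproline, which keeps the triple helix stable at body temperature. It is a tetramer of catalytic α subunits, encoded by P4ha1, P4ha2 and P4ha3, and of β subunits, which are protein disulfide isomerase (P4hb). Lysyl hydroxylases act on lysines there too, with PLOD1 acting mainly in the helix, PLOD2 in the telopeptides at the chain ends, and PLOD3 also adding sugars to hydroxylysine. Both hydroxylases need iron, oxygen, 2-oxoglutarate and ascorbate. After secretion and trimming, the lysyl oxidases, which depend on copper, oxidize lysines and hydroxylysines to aldehydes that then form the crosslinks between collagen molecules and between elastin chains.

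Each library held between 11392429 and 11483486 normalized counts in total, and the reads that could be recovered in 5 libraries were between 9853000 and 12229175. In those 5 libraries each member was covered by between 183 and 8739 reads, so that none lay near the floor of 3 counts. The transcript of Gnaq, the gene of Gαq, was not lower in the libraries labelled GαqKO (1691 ± 48.5 against 1926 ± 36.0 normalized counts, SD, n = 3), whereas that of Gna11 was (2148 ± 29.0 against 451.6 ± 28.7, SD, n = 3). Counts over whole genes cannot tell a deleted transcript from an intact one, so every direction below is drawn from the labels. All 4 Y-linked genes examined were present in WT and listed at 0 in the libraries labelled GαqKO. Of 10 fibroblast markers 5 were higher in GαqKO and 5 in WT, and their summed level was 84406 to 90167 normalized counts in WT and 62921 to 66196 in GαqKO. Vim, Col1a1, Col1a2, Fn1 and Col3a1 were abundant in both groups and lower in GαqKO (Vim 41785 ± 2519 against 33508 ± 729.0 normalized counts, SD, n = 3), and Pdgfrb was at 892.2 ± 56.4 and 1046 ± 42.0. The other 4, Pdgfra, Dcn, S100a4 and Thy1, were higher in GαqKO and at 19.6, 32.1, 169.8 and 0.7 normalized counts in WT, against 2320, 1663, 517.8 and 64.9. The 6 epithelial markers summed to 515.0 to 540.9 normalized counts in WT and 10.1 to 23.1 in GαqKO, nearly all from Krt14 and Cdh1, with Krt5 and Epcam near 0 in both. The 4 neural and glial markers summed to 430.6 to 501.2 and 116.8 to 137.1, mostly from Tubb3. Endothelial, leukocyte and muscle markers reached at most 25.4, 115.0 and 23.2. The part of these marker differences in the results below was not tested, and in bulk RNA fewer cells of a type and less RNA per cell cannot be told apart.

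Differences were tested with limma on log2(normalized count + 1), for the 14096 genes that reached 10 normalized counts in 3 or more libraries, and Benjamini-Hochberg adjusted p-values were taken over all of them. A gene was called at an adjusted p under 0.05. All 10 members entered the test. The libraries labelled GαqKO had higher levels of 5 (Loxl1, Loxl3, Loxl4, Plod1 and Plod3) and lower levels of 4 (Lox, Loxl2, Plod2 and P4ha1), and P4ha2 was not called. Calls were common in this comparison, at 31.8% of all genes tested for higher and 34.1% for lower, so 9 calls among 10 genes are to be read against 65.8%. At the study's thresholds, which add a log2 fold change over 1 or under -1, there were 3 higher (Loxl1, Loxl3 and Loxl4) and 3 lower (Lox, Loxl2 and Plod2), against 10.2% and 10.5% of all genes. The values of the WT and GαqKO libraries did not overlap for 9 members, 5 of them higher and 4 lower in GαqKO, beside 69.6% of all genes (33.8% higher and 35.8% lower). Taken without its sign, the log2 fold change had a median of 1.14 over the members and 0.39 over all genes tested, and the signed medians were 0.13 and -0.01. The study's methods give the 3 libraries of a group as biological replicates, all from the 1 cell line of that group.

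**Figure D1:**
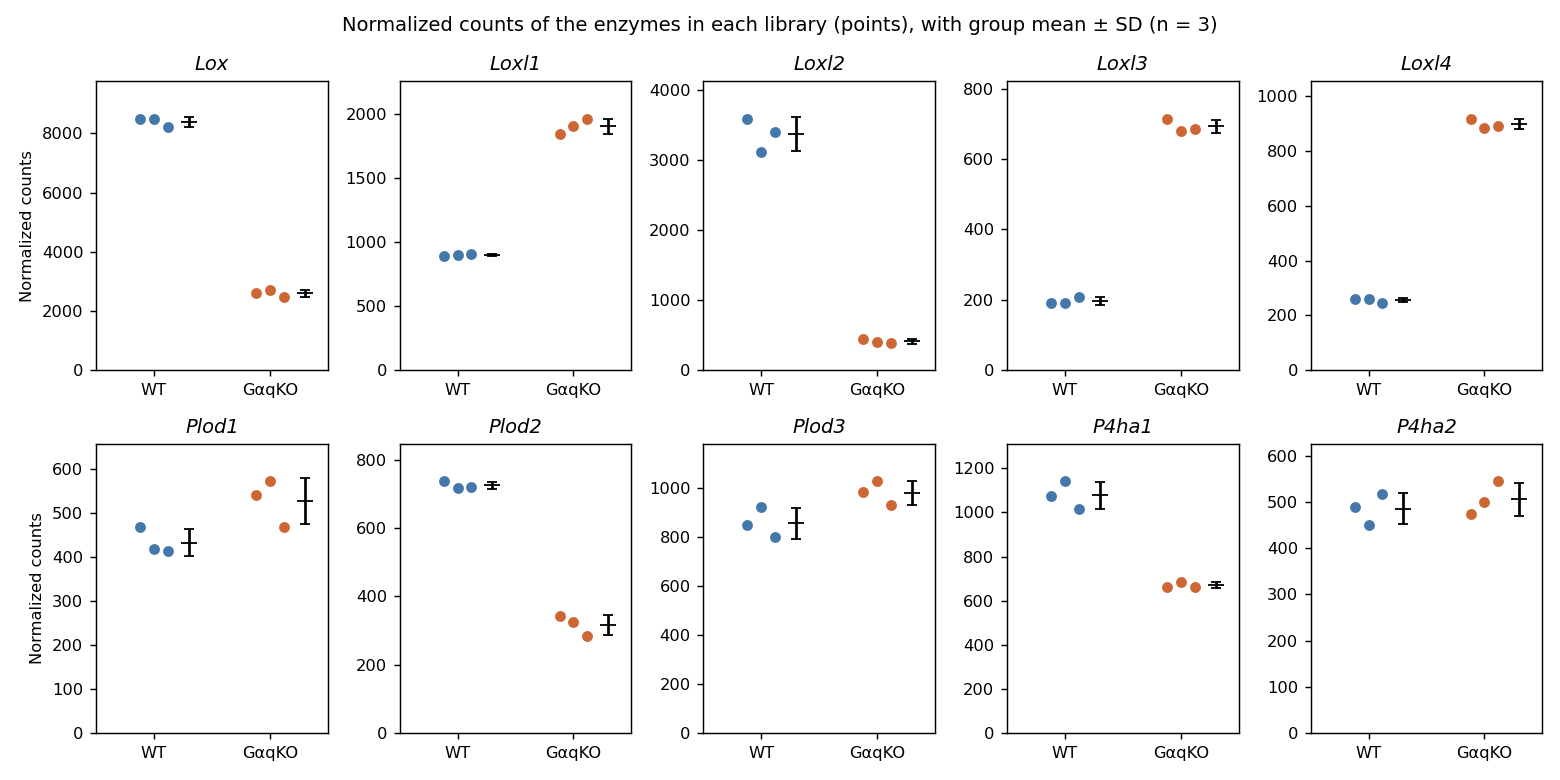
Normalized counts (y axes, each from 0 and with its own scale) of the 10 enzymes in the WT and GαqKO libraries. Each point is 1 library, and the bar beside it is the group mean ± SD (n = 3). The points of the groups are apart in all panels but that of P4ha2, where WT spans 450.7 to 518.1 and GαqKO 473.3 to 544.8.

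All 5 lysyl oxidase genes differed between the groups, Lox and Loxl2 being lower and Loxl1, Loxl3 and Loxl4 higher in the libraries labelled GαqKO. Lox, the founding member of the family, lies on the minus strand of chromosome 18 in GRCm39, from 52649136 to 52663110. Its normalized counts were 8492, 8489 and 8204 in the WT libraries and 2608, 2716 and 2469 in those labelled GαqKO. Every GαqKO value was below every WT value, and means of 8395 ± 165.7 and 2598 ± 123.7 (SD, n = 3) gave a log2 fold change of -1.69 (standard error 0.044, 95% interval -1.79 to -1.60, adjusted p = 1.14e-12, limma), or 3.23-fold lower. Loxl2, whose protein crosslinks collagen IV of basement membranes and fibrillar collagens, spans chromosome 14 from 69846209 to 69933283 on the plus strand. It had 3586, 3108 and 3399 normalized counts in WT and 450.7, 403.5 and 381.7 in GαqKO. This was the largest difference among the members, 8.15-fold lower, with a log2 fold change of -3.03 (standard error 0.069, 95% interval -3.18 to -2.88, adjusted p = 3.19e-13, limma).

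Loxl1, the family member tied to elastic fibre formation, lies on chromosome 9 from 58195014 to 58220495 on the minus strand. The WT libraries had 889.6, 896.6 and 907.9 normalized counts and the libraries labelled GαqKO 1839.5, 1905 and 1961. The groups stood well apart, at 898.1 ± 9.2 and 1902 ± 60.7 (SD, n = 3). The log2 fold change was 1.08 (standard error 0.047, adjusted p = 1.83e-10, limma), and its 95% interval, 0.98 to 1.18, reached under the threshold of 1. Loxl3, which is needed for palate and spine development, lies on the plus strand of chromosome 6 from 83011152 to 83029543. It rose from 191.1, 190.4 and 208.7 normalized counts in WT to 714.6, 678.7 and 684.8 in GαqKO, and its log2 fold change was 1.81 (standard error 0.075, adjusted p = 1.03e-10, limma). Loxl4 (chromosome 19, 42580711 to 42601252, minus strand) had 260.0, 260.3 and 247.3 normalized counts in WT and 918.4, 885.7 and 891.2 in GαqKO. Its log2 fold change was also 1.81 (standard error 0.065, adjusted p = 2.34e-11, limma), so Loxl3 and Loxl4, the least abundant members of the family in WT, differed by nearly the same factor, 3.51 and 3.50.

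Some of these genes share their place with others, and the strand setting of the counting is not given in the sources used here, so reads of overlapping genes cannot be told apart. All of the exon bases of Loxl1 lie within the span of Gm57034 on the other strand, which had 4.3 ± 2.1 and 15.6 ± 2.5 normalized counts (SD, n = 3), but 4.0% within its exons. For Loxl3, 25.3% of the exon bases are also exon of the opposite gene Htra2, a mitochondrial protease, which was itself higher in GαqKO (1399 ± 23.8 against 2695 ± 161.9, SD, n = 3). For Loxl2 the figure is 22.7%, shared mainly with R3hcc1, which was lower in GαqKO (765.3 ± 69.1 against 567.9 ± 34.0), and with the antisense gene Gm27177, listed at 0. Lox shares 0.6% of its exon bases with other exons. Its antisense neighbour Gm41724 had 213.5 ± 19.7 and 61.8 ± 7.5 normalized counts, a log2 fold change of -1.78 beside the -1.69 of Lox.

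**Figure D2:**
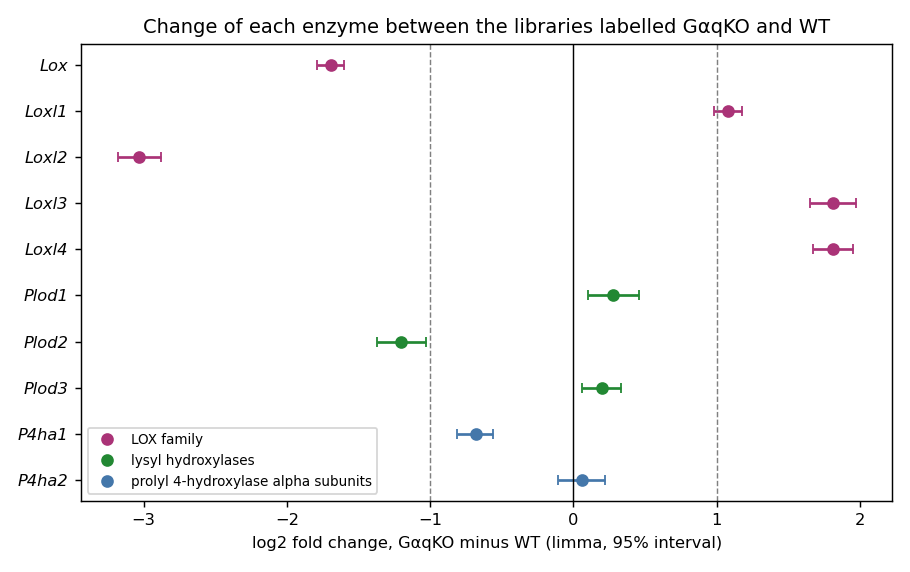
log2 fold change of each enzyme (x axis, GαqKO minus WT, limma), with its 95% interval as a bar and the enzyme family as a colour. Dashed lines mark -1 and 1. The LOX family runs from -3.03 (Loxl2) to 1.81 (Loxl3 and Loxl4), and the bar of P4ha2 alone crosses 0.

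Within the family the order of the transcripts changed. To compare genes, counts were divided by the exon length of the gene, and each gene's share of the family was taken within a library, where the size factor cancels. In WT the order per kb of exon was Lox (1703 ± 33.6 normalized counts per kb, SD, n = 3), Loxl2 (609.2 ± 43.6), Loxl1 (227.0 ± 2.3), and then Loxl4 (42.8 ± 1.2) and Loxl3 (42.1 ± 2.2), which did not differ beyond their spread. In the libraries labelled GαqKO, Lox (526.9 ± 25.1) was followed closely by Loxl1 (480.8 ± 15.3), then by Loxl4 (150.2 ± 2.9) and Loxl3 (148.1 ± 4.1), again within their spread, and Loxl2 came last at 74.6 ± 6.4. Per kb of the canonical transcript instead, Loxl1 stood above Lox in GαqKO (571.1 against 543.6), so the order of these 2 depends on the length used.

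Lox made up 64.2%, 66.3% and 64.1% of the family per kb of exon in the WT libraries and 38.3%, 39.4% and 36.8% in those labelled GαqKO. The share of Loxl1 went from 8.65% ± 0.24 to 34.8% ± 1.4 (SD, n = 3), and that of Loxl2 from 23.2% ± 1.3 to 5.40% ± 0.44. Loxl3 went from 1.60% ± 0.10 to 10.7% ± 0.34 and Loxl4 from 1.63% ± 0.042 to 10.9% ± 0.27. Divided by the length of the whole gene span instead, the share of Loxl2 went from 5.54% to 1.36% and that of Loxl1 from 5.05% to 21.5%, so the directions held but the sizes depend on the length used. None of the 5 shares overlapped between the groups, and each gave p = 0.1 in a two-sided exact permutation test, the smallest that 3 against 3 libraries allow. The whole family fell as a sum, from 13110 ± 267.9 to 6503 ± 103.8 normalized counts (SD, n = 3), 2.02-fold lower. Without regard to length, Lox and Loxl2 had held 64.0% and 25.6% of the family's normalized counts in WT.

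**Figure D3:**
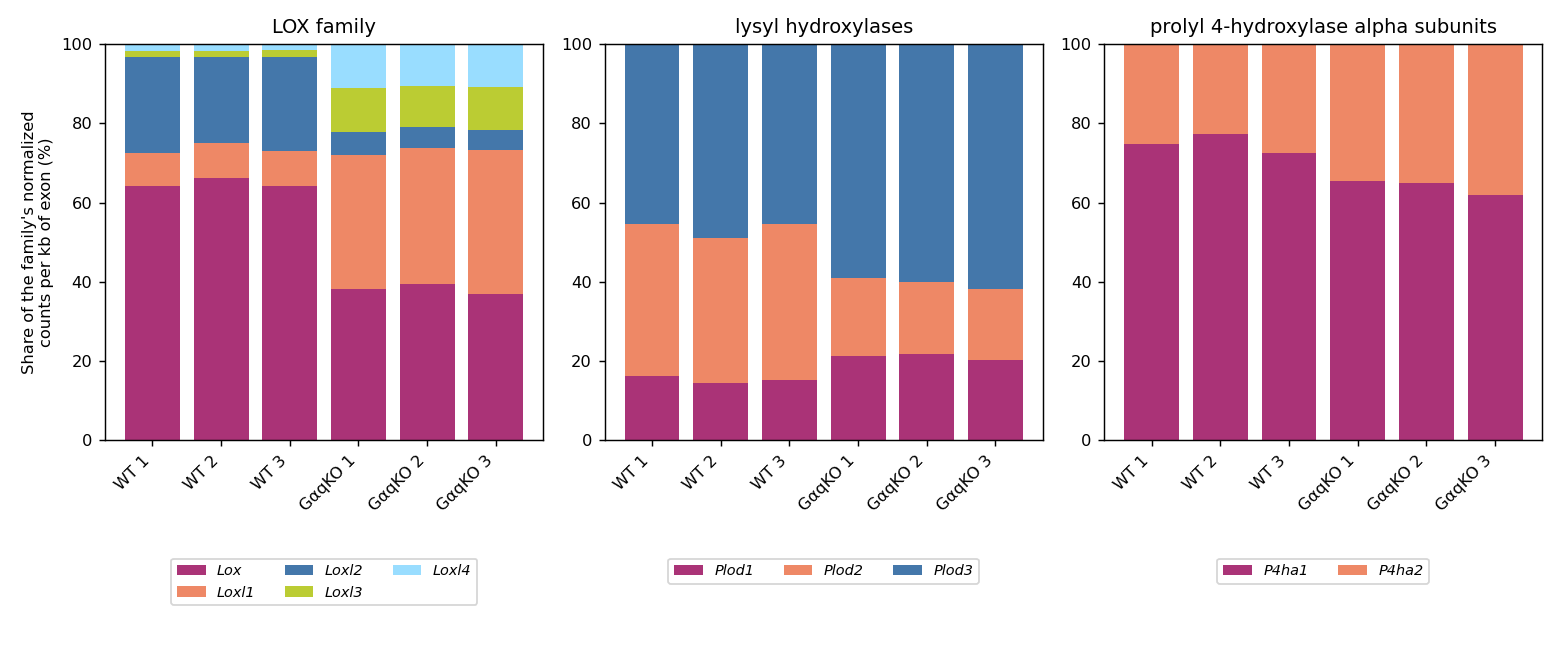
Share of each enzyme (y axis, percent) in its family's normalized counts per kb of exon, 1 bar per library. Lox and Loxl2 shrink from WT to GαqKO (means 64.9% to 38.2% and 23.2% to 5.40%) while Loxl1, Loxl3 and Loxl4 widen, Plod2 shrinks from 38.1% to 18.7%, and P4ha1 from 74.9% to 64.1%.

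The lysyl hydroxylases were split in the same comparison, with Plod2 lower and small rises of Plod1 and Plod3. Plod2 (chromosome 9, 92424119 to 92490494, plus strand), whose product makes the hydroxylysines of pyridinoline crosslinks, had 737.2, 717.9 and 721.7 normalized counts in WT and 341.8, 324.9 and 283.0 in GαqKO. With means of 725.6 ± 10.2 and 316.6 ± 30.3 (SD, n = 3) it was 2.29-fold lower, a log2 fold change of -1.20 (standard error 0.077, 95% interval -1.37 to -1.03, adjusted p = 9.99e-09, limma). Plod1 lies on chromosome 4 from 147991574 to 148021356 on the minus strand, and loss of its human counterpart causes a kyphoscoliotic form of Ehlers-Danlos syndrome. The WT libraries had 466.8, 417.7 and 412.2 normalized counts and the GαqKO libraries 540.9, 571.2 and 468.3, so that the lowest GαqKO value lay just above the highest WT value. Its log2 fold change was 0.28 (standard error 0.084, 95% interval 0.10 to 0.46, adjusted p = 0.00946, limma), and without GαqKO replicate 2 the adjusted p was 0.0541.

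Plod3 (chromosome 5, 137015827 to 137025502, plus strand) had 848.9, 922.9 and 799.0 normalized counts in WT and 983.2, 1028 and 930.5 in GαqKO. Here too the groups only just parted, with a log2 fold change of 0.20 (standard error 0.064, 95% interval 0.06 to 0.33, adjusted p = 0.0154, limma). This call was lost without WT replicate 3 (adjusted p = 0.0574, limma) and without GαqKO replicate 2 (0.0724). Per kb of exon, Plod3 led in both groups (137.9 ± 10.0 and 157.8 ± 7.8, SD, n = 3). Plod2 was second in WT (112.7 ± 1.6, above Plod1 at 45.3 ± 3.1), and in GαqKO Plod1 (55.3 ± 5.5) and Plod2 (49.2 ± 4.7) overlapped across libraries. Within each GαqKO library Plod1 was above Plod2 (56.7 and 53.1, 59.9 and 50.5, 49.1 and 44.0). The share of Plod2 in the lysyl hydroxylase transcripts thus went from 38.1% ± 1.4 to 18.7% ± 0.93, that of Plod3 from 46.6% ± 2.0 to 60.2% ± 1.3 and that of Plod1 from 15.3% ± 0.95 to 21.0% ± 0.76, with no overlap (p = 0.1 each, two-sided exact permutation test). Per kb of gene span, Plod2 went from 9.61% to 3.85%, and the shares of Plod1 overlapped (12.8% ± 1.0 and 14.3% ± 0.64, SD, n = 3, p = 0.2, same exact test). Summed over the family, the normalized counts were 2015 ± 70.9 in WT and 1824 ± 126.5 in GαqKO, 1.10-fold apart.

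Of the prolyl 4-hydroxylase α subunits, P4ha1 was lower and P4ha2 was not called. P4ha1, the main α subunit of most cells, lies on chromosome 10 from 59159092 to 59209126 on the plus strand. It had 1074, 1140.5 and 1017 normalized counts in WT and 663.9, 685.7 and 659.6 in GαqKO, with every GαqKO library below every WT library. The log2 fold change was -0.68 (standard error 0.058, 95% interval -0.81 to -0.56, adjusted p = 1.68e-07, limma), or 1.61-fold lower. P4ha2 (chromosome 11, 53981553 to 54022494, plus strand), the α subunit prominent in cartilage and bone, had 488.7, 450.7 and 518.1 normalized counts in WT and 473.3, 500.7 and 544.8 in GαqKO. These values overlapped, and the log2 fold change of 0.06 had a 95% interval from -0.11 to 0.22 (adjusted p = 0.516, limma), which leaves room for a small difference in either direction. The share of P4ha1 in the pair, per kb of exon, went from 74.9% ± 2.4 to 64.1% ± 1.8 (SD, n = 3, p = 0.1, two-sided exact permutation test). Per kb of the canonical transcript it went from 62.6% to 50.0%.

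The start regions of the prolyl 4-hydroxylase genes are shown because the pair differed in response and both are known targets of hypoxia-inducible factor (HIF), which binds the core letters ACGTG or GCGTG. RefSeq windows of 250 bases before and 50 after the gene start, in the build GRCm38.p6, were at hand for 5 members, Loxl4, Plod1, Plod3, P4ha1 and P4ha2. They are written on the strand of the gene, with capitals for the core on either strand (CACGT and CACGC are the reversed forms). The cores do not overlap each other on a strand, and a CACGTG, of which these windows hold none, would have counted once on each strand. The windows are chr10:59323046-59323345 (plus strand) for P4ha1, chr11:54100674-54100973 (plus strand) for P4ha2 and, as a member that rose, chr19:42612757-42613056 (minus strand) for Loxl4.
P4ha1: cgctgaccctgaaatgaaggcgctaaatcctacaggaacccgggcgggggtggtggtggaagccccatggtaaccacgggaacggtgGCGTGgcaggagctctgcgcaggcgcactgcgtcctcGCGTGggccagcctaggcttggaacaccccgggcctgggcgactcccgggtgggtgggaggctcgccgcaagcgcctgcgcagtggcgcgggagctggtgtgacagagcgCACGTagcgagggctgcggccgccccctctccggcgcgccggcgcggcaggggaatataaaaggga
P4ha2: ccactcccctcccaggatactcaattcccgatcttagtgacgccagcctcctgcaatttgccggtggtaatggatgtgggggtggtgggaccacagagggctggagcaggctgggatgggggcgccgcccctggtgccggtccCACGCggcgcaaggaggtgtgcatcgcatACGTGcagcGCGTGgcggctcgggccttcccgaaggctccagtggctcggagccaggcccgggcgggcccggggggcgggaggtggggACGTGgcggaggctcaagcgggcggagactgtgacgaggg
Loxl4: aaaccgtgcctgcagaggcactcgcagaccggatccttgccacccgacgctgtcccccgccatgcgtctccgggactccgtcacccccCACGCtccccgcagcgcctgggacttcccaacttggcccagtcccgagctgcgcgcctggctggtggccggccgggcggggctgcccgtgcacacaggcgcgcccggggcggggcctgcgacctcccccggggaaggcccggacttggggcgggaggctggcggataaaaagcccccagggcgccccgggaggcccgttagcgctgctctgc
The ACGTG core occurred 1 time in the window of P4ha1 and 2 times in that of P4ha2, and GCGTG 2 times in each, while Loxl4 held GCGTG 1 time and no ACGTG. The window of Plod1 held GCGTG 2 times, and that of Plod3 held ACGTG 1 time and GCGTG 3 times. One or the other core was found in all 5 windows and in 43.8% of all 32851 windows in the table (ACGTG in 19.6%, GCGTG in 32.4%). Of these members, Loxl4, Plod1 and Plod3 rose, P4ha1 fell and P4ha2 was not called. Lox, Loxl2 and Plod2, which fell, and Loxl1 and Loxl3, which rose, had no window. The cores therefore cannot be set against the direction of change. These windows are rich in G and C, at 75.0% for Loxl4, 70.3% for both P4ha genes, 64.3% for Plod1 and 53.3% for Plod3, beside a median of 52.7% over all windows. The letters TATAAA were found in P4ha1 and Plod1 and in 13.6% of all windows. A match of letters is a description and not evidence of binding.

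HIF regulators and other HIF-1 targets were examined as lists chosen for this description, and only the list of targets held calls in both directions. Their counts are to be read beside all genes tested, of which 31.8% were called higher and 34.1% lower. Of 8 HIF hydroxylases and related genes 6 were tested, of which 4 were higher in GαqKO, 0 lower and 2 not called, with a median log2 fold change of 0.47 beside -0.01 over all genes tested. Epas1, the gene of HIF-2α, passed the fold threshold at low counts (6.4 ± 2.6 against 18.2 ± 6.4, SD, n = 3, log2 fold change 1.37). Hif1an, the asparaginyl hydroxylase of HIF and the most abundant of the list, had 1728 ± 64.1 and 1771 ± 35.3 normalized counts and was not called. Hif1a was listed at 0 in all 6 libraries. However, 100.0% of its exon bases lie within the spans of other genes and 8.3% within their exons. An absent transcript and reads not assigned to the gene therefore cannot be told apart. Among 11 tested HIF-1 targets outside the enzyme families 3 were higher, 3 lower and 5 not called, with a median of -0.03. Pdk1, which restrains pyruvate entry into mitochondria, was higher (178.0 ± 7.9 against 1153 ± 10.2, log2 fold change 2.69), as was the abundant Ldha (0.63), whereas Car9, a cell surface carbonic anhydrase, and Ndrg1 were lower (-1.75 and -1.30) at under 80 normalized counts. Among the members, P4ha1, P4ha2, Plod2 and Lox are known HIF targets, with log2 fold changes of -0.68, 0.06 (not called), -1.20 and -1.69. This is not a full list, as the other members were not sorted by whether HIF regulates them. Those others went both ways, from -3.03 for Loxl2 to 1.81 for Loxl3 and Loxl4.

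The lists of enzymes and factors that work beside the members held calls in both directions, except for the chaperones and export factors. The median of each list was below 0. All counts of calls in this paragraph are to be read beside the shares over all genes tested. Those shares were 31.8% higher, 34.1% lower and 65.8% in either direction. Of 9 tested partners, which are the other prolyl hydroxylases, their complexes and the collagen glycosyltransferases, 3 were higher, 5 lower and 1 not called, with a median log2 fold change of -0.17. P4hb, the β subunit that holds the P4ha subunits in solution, was the most abundant at 10993 ± 724.1 and 9731 ± 224.7 normalized counts (SD, n = 3), a log2 fold change of -0.17. P4ha3, the remaining α subunit, was lower as well (251.8 ± 37.1 against 163.6 ± 12.1, log2 fold change -0.61). P3h3 and P3h4, which form a complex with lysyl hydroxylase 1 (Plod1), moved apart, P3h3 being higher (196.5 ± 14.1 against 501.0 ± 12.8, log2 fold change 1.35) and P3h4 lower (1710 ± 50.4 against 795.9 ± 28.8, log2 fold change -1.10). None of the 12 tested chaperones and export factors of procollagen was higher, 8 were lower and 4 were not called, with a median of -0.25. Creb3l1, a transcription factor that drives collagen secretion genes, went from 1913 ± 43.6 to 4.8 ± 5.0 normalized counts (log2 fold change -8.74). Tmem38b, an endoplasmic reticulum ion channel whose loss impairs collagen lysine hydroxylation, went from 194.6 ± 13.5 to 7.0 ± 4.6 (-4.76). Fkbp14, a prolyl isomerase of procollagen, was lower too (357.9 ± 16.5 against 129.1 ± 11.0, -1.47), and the collagen chaperone Serpinh1, the most abundant of the list, was not called (16398 ± 596.0 against 16723 ± 514.6, 0.03). Over 6 tested procollagen proteinases and enhancers, which trim collagen before LOX acts, 2 were higher and 4 lower, with a median of -0.65. Adamts3 (-2.92) and Adamts2 (-1.58), which are N-propeptidases, passed the fold threshold. Adamts14, another N-propeptidase, was called higher, though its values overlapped (224.9 ± 22.3 against 287.2 ± 38.6, log2 fold change 0.35). The enhancer Pcolce, the most abundant of the list, was higher by 0.23. Among 6 genes of copper, iron and ascorbate supply, 1 was higher, 3 lower and 2 not called, with a median of -0.61. None passed the fold threshold, and the transferrin receptor Tfrc was the most abundant (log2 fold change -0.45).

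**Figure D4:**
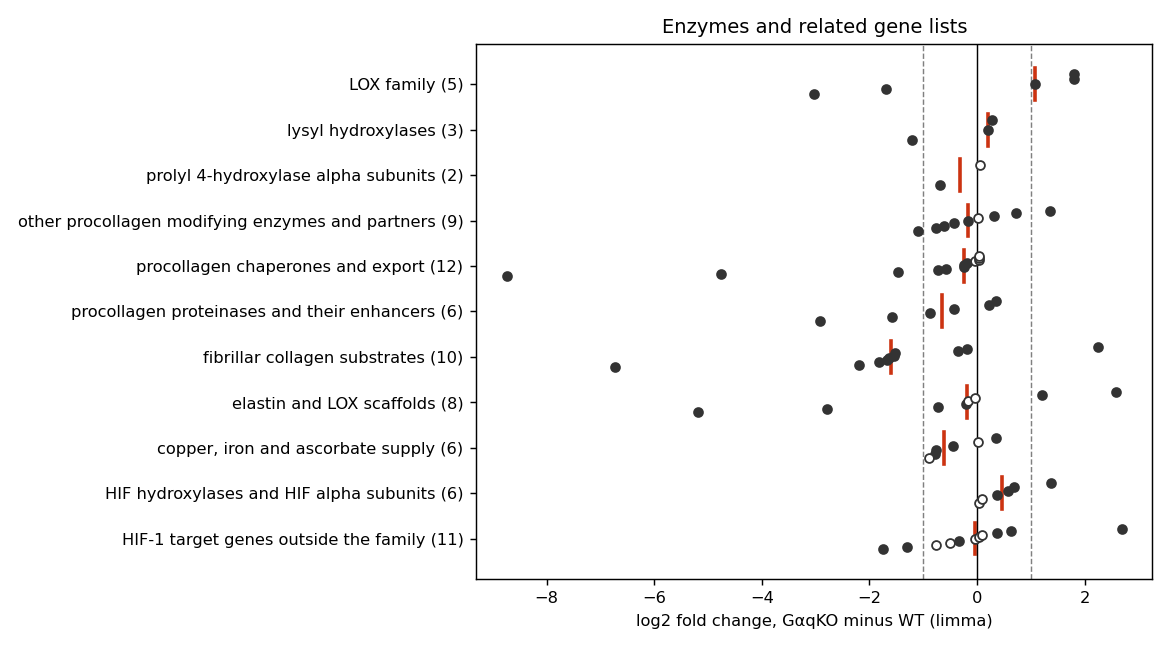
log2 fold change (x axis, GαqKO minus WT, limma) of the enzymes by family and of the related gene lists, with the number of genes tested in brackets. Each point is 1 gene (filled where the adjusted p was under 0.05), red bars are list medians, and dashed lines mark -1 and 1. The fibrillar collagens lie mostly to the left (median -1.59), while the LOX family spreads to both sides.

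The substrates were more uniform. Beside the counts of this paragraph, 31.8% of all genes tested were called higher and 34.1% lower. Of 10 tested fibrillar collagen genes 9 were lower and 1 was higher in the libraries labelled GαqKO, with a median log2 fold change of -1.59. Col1a2, the most abundant over the 6 libraries, was lower by little (13451 ± 374.4 against 10455 ± 182.4 normalized counts, SD, n = 3, log2 fold change -0.36). Col1a1, which stood above it in WT and below it in GαqKO, went from 16671 ± 1168 to 5775 ± 272.1 (log2 fold change -1.53), and Col5a1 (-1.55), Col5a2 (-1.68), Col5a3 (-2.20), Col11a2 (-1.64) and Col27a1 (-1.82) also passed the fold threshold. Col11a1 fell to the floor, at least 140.2-fold lower, and Col24a1 alone was higher (23.0 ± 3.1 against 113.7 ± 21.2, log2 fold change 2.25). Among 8 tested elastic fibre genes and proteins that hold LOX enzymes or their proenzymes in the matrix, 2 were higher, 4 lower and 2 not called. Postn, which helps bring the LOX-activating proteinase BMP1 to the matrix, was higher (71.2 ± 12.2 against 426.4 ± 28.7, log2 fold change 2.58), as was Ltbp4 (1.21), a partner of elastic fibre assembly. Fmod, a collagen-binding proteoglycan that guides LOX to its sites, went from 203.3 ± 19.2 to 4.7 ± 1.1 (-5.18), Thbs1 from 8639 ± 345.6 to 1244 ± 44.9 (-2.79), and Fn1, the most abundant of the list, was lower by less (-0.73). Elastin itself (Eln) did not reach the level needed for the test, with 3.7 ± 1.7 normalized counts in WT and 2.2 ± 2.3 in GαqKO.

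Set against the summed Col1a1, Col1a2 and Col3a1 of the same library, the enzyme families differed in direction, but not against Col1a1 alone. The log2 ratio of the summed LOX family to the summed Col1a1, Col1a2 and Col3a1 was -1.32 ± 0.062 in WT and -1.52 ± 0.024 in GαqKO (SD, n = 3), a difference of -0.19. For the lysyl hydroxylases the log2 ratio was -4.03 ± 0.11 and -3.35 ± 0.062, a difference of 0.67, and for P4ha1 plus P4ha2 it was -4.39 ± 0.092 and -3.99 ± 0.081, a difference of 0.41. Against Col1a1 alone, the difference of the LOX family was 0.52 and so had the other sign. Those of the lysyl hydroxylases and of P4ha1 plus P4ha2 were 1.38 and 1.12, so all 3 were then positive. The 11 listed fibrillar collagens summed to 44041.5 to 47753.4 normalized counts in WT and 22123.5 to 23230.5 in GαqKO. The ratio to that sum was not taken. The single genes spread more widely, from a difference in log2 ratio of -2.21 for Loxl2 and -0.88 for Lox to 1.90 for Loxl1 and 2.63 for Loxl3 and for Loxl4. Plod2 was at -0.38 and P4ha1 at 0.13. Against Col1a1 alone, Lox was at -0.17, Loxl2 at -1.50, Loxl1 at 2.61, Plod2 at 0.33 and P4ha1 at 0.84, so the sizes depend on the substrate used.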

How the data were processed

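The members, the related lists and the tests were chosen with earlier results of these data known. Poly-A selected RNA of 3 WT and 3 GαqKO MEF libraries was sequenced as paired ends. The authors aligned reads with Rbowtie2 to GRCm39, assigned them to GENCODE M32 genes with featureCounts, and normalized with DESeq2. Versions and the strand setting are not given in the sources used here. The deposited values are a signal, gene counts divided by a size factor per library, with no raw counts. Symbols, coordinates and exon lengths came from the GENCODE M39 annotation of GRCm39, which matched 56310 of 56953 gene identifiers (98.9%).

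The 6 libraries were compared with limma 3.58.1 (R 4.3.3) on log2(normalized count + 1) with no covariate, letting the prior variance follow the mean level. The added 1 makes the fold changes of low genes too small. P-values measure the spread between the 3 libraries of each line. In all 6 libraries 100.0% of nonzero values were whole multiples of a step (tolerance 0.1). Reads were accepted as recovered in 5 of them, and edgeR 4.0.16 and DESeq2 1.42.0 were run on those reads as alternatives. Reads of GαqKO replicate 3 were not accepted as recovered and were not used. In edgeR the common biological coefficient of variation was 5.21%. The floor was 3 counts, counting error only. The genes named from the lists were those past the fold threshold and the most abundant of each list. P4ha3, Adamts14, Eln, Hif1a, the cell type markers and the overlapping genes were named outside this rule, after their values were seen. Promoter windows came from RefSeq (GRCm38.p6). The limma script was tested on simulated data with 3 and 3 libraries. Among 13794 genes it recovered 84 of 94 genes changed 2-fold and 94 of 94 changed 4-fold, with 4 false calls. Far fewer genes were changed there than were called here, with 1 fixed spread, and changes under 2-fold were not simulated. These rates need not hold for the present data. Python 3.11.15 with pandas 2.3.3, scipy 1.17.1 and matplotlib 3.10.9 was used for the rest.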

Additional observations from a re-analysis of the deposited data

How the results depend on the processing

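Of 190 values, the log2 fold changes of the 10 enzymes under 19 alternatives each, 181 kept their direction and their side of the threshold, 9 changed the call and 0 reversed. Limma's test against a log2 fold change of 1 (treat) left 2 members higher (Loxl3 and Loxl4) and 2 lower (Lox and Loxl2), with 847 and 1027 of all genes, and 5 and 13 genes of the related lists. A filter of 10 normalized counts in all 6 libraries left 831 and 765 genes of the background past the fold threshold, where fewer genes could be tested. Plod3 also lost its call without a trend in the prior spread (adjusted p = 0.0684, limma). Leaving out 1 library at a time gave 3 to 5 members higher, the 3 without GαqKO replicate 2, where Plod1 and Plod3 were not called. The LOX family ratio to collagen reversed to 0.52 with Col1a1 alone, since Col1a1 was lower by more than Col1a2 and Col3a1. With the replicate block, 5 members were higher and 4 lower, and 4324 and 4638 genes in all. Same-numbered libraries did not deviate together (correlations -0.045, -0.148 and -0.064, beside -0.075 to 0.125 for different numbers). No pairing was seen, but 3 libraries a group cannot exclude that they were prepared in pairs. Both count tests on 5 libraries called the same number of members, 5 higher and 4 lower. Dividing by gene span in place of exon length moved the share of Loxl2 to a difference of -4.17 percentage points from -17.8, and that of Plod1 to 1.51 from 5.72. LOX family shares per kb of exon outside other genes could not be had, because Loxl1 lies wholly inside another gene's span, and the planned protein comparison was not run. With 3 libraries a group, shares and ratios cannot reach a p under 0.1.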
